A study of Homo sapiens with 42 samples.

Results

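Chromatin accessibility was compared between MCF10A cells grown with oncostatin M (OSM) and MCF10A cells grown with epidermal growth factor (EGF), within each of 2 times, 24 h and 48 h. The 14 libraries were chosen by their labels, as the 6 OSM libraries (3 at each time) and the 8 EGF libraries (4 at each time) of the 42 ATAC-seq libraries in the series. MCF10A is a non-tumorigenic, immortalized human mammary epithelial cell line, so all groups share 1 genetic background. Cells on collagen-1 were moved from growth medium to experimental medium that lacks EGF and insulin and still holds horse serum, hydrocortisone and cholera toxin, and then received fresh experimental medium with 10 ng/ml OSM or 10 ng/ml EGF. The OSM wells received no EGF, so each difference described here is between a medium with OSM and no added EGF and a medium with EGF and no added OSM, and the effect of OSM cannot be told apart from the absence of EGF within this pair of groups. PBS libraries, which received neither ligand, and HGF libraries (40 ng/ml) are given beside the results where they bear on this. Time 0 libraries and libraries with IFNG (20 ng/ml) or TGFB (10 ng/ml) enter an alternative fit to all 42 libraries and some counts. IFNG and TGFB were each given together with 10 ng/ml EGF. The study's methods describe its collections as biological replicates, and the labels give each library only a replicate letter, so p-values measure the spread between these samples.

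OSM is a cytokine of the interleukin-6 family. It binds a receptor made of IL6ST (gp130) and OSMR, or IL6ST and LIFR, and the JAK kinases on this receptor phosphorylate STAT3 and other STAT proteins, which bind a palindrome of the letters TTC and GAA with a short spacer. EGF binds EGFR, a receptor tyrosine kinase whose RAS and ERK branch drives AP-1 and ETS family factors and sustains growth of mammary epithelial cells. ATAC-seq reads mark DNA that the Tn5 transposase can reach, so a peak marks open chromatin such as a promoter or an enhancer.

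The sequences below are 121 bases of hg38, forward strand, centred on the summit of a site, and are shown because they carry the letters that the results turn on. In the first 6, all from sites detected or more enriched with OSM, capitals mark the STAT letters TTCNNNGAA.
Site nearest to RGMA, chr15:93566902-93567022: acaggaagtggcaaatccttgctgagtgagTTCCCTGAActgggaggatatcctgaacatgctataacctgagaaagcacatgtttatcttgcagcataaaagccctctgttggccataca
Site nearest to KYNU, chr2:142642781-142642901: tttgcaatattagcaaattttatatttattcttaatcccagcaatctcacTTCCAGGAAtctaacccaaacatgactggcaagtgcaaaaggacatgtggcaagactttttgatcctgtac
Site nearest to FCAMR, chr1:206998990-206999110: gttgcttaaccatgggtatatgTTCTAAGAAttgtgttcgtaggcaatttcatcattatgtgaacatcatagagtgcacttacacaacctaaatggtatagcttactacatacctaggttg
Site nearest to IL17B, chr5:149438863-149438983: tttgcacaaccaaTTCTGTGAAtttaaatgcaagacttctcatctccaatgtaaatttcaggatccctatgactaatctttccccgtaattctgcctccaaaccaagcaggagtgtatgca
Intron of BCL6, chr3:187737896-187738016: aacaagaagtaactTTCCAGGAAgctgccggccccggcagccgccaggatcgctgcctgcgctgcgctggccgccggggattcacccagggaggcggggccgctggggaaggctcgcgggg
Site nearest to SERPINB4, chr18:63647073-63647193: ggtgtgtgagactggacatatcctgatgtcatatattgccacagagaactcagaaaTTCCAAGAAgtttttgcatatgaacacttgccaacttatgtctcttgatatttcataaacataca
The next 3 come from sites detected or more enriched with EGF. Capitals mark the AP-1 letters TGANTCA in the first, and the NFI letters CTTGGCA, read on the opposite strand as TGCCAAG, in the other two.
Intron of P3H2, chr3:190064290-190064410: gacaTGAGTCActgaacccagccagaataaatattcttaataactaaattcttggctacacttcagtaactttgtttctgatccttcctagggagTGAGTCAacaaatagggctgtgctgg
Intron of ZBTB40, chr1:22500616-22500736: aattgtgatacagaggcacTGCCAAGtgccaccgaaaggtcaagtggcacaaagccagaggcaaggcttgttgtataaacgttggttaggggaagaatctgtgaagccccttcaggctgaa
Intron of VAV3, chr1:107670191-107670311: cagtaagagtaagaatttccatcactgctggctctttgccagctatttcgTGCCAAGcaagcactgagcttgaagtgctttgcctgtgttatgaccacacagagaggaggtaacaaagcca

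The libraries differed in yield. Peak numbers on the primary chromosomes ran from 11188 in OSM 48 h replicate B to 107141 in OSM 24 h replicate A, and from 43099 to 100669 among EGF libraries. The log10 peak number was lower with OSM by 0.23 on average over the 2 times, which did not pass an exact permutation test within time (two-sided p = 0.0865, 1225 arrangements), and at 48 h alone p was 0.0571 where 0.0286 is the smallest the design allows. OSM 24 h replicate C, OSM 48 h replicates B and C and EGF 24 h replicate B were left out by the study's own annotation for a low fraction of reads in peaks, so 3 OSM libraries remained under that criterion, and the results are given with and without these 4. The files hold no read counts, so sequencing depth is unknown. Of 10 mammary epithelial marker genes, 8 had a promoter site, and between 0 (OSM 48 h replicate B) and 8 of these were detected per library, whereas none of 4 immune and none of 3 endothelial markers had one; of 5 fibroblast markers, COL1A2 and DCN had one.

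Peaks were merged over the 14 libraries into 123356 sites, of which 95236 were found in at least 2 libraries and 7584 in all 14. Promoters, within 1000 bp of a protein-coding start, made up 13785 sites, introns 37172, exons 2119 and intergenic DNA 42160. A group of 2168 sites lay in tandem repeats, 1890 of them with the period of alpha satellite DNA, and the 4 libraries with the fewest peaks, the same 4 that the study left out, detected the largest shares of them. OSM 48 h replicate B detected 65.9% of the repeat sites and 8.98% of the other 93068, whereas EGF 24 h replicate C detected 24.2% and 73.4%. Satellite arrays carry their own letters. The run ttctcagaa, which matches TTCNNNGAA, was present in 848 of the 951 repeat sites that hold the STAT letters (89.2%) and in 604 of the 5979 such sites elsewhere (10.1%). Motif results are therefore given for all sites and, as an alternative chosen after seeing the data, without repeat sites.

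The media differed in which transcription factor motifs the detected sites carried. For each of 21 motifs, the number of sites with the motif that a library detected was divided by the number its detection rates predict, and the excess in percent is called the motif deviation. The letters were searched on both strands within 100 bp of the summit. Over all sites, the planned form, 5 of the 21 motifs passed an adjusted p of 0.05 (23.8%), STAT and SMAD higher and NFI, FOX and TEAD lower with OSM, and 0 passed without the 4 libraries that the study left out, where 50 arrangements remain. Without repeat sites 11 passed (52.4%), 8 higher and 3 lower with OSM. Deviations below are without repeat sites unless all sites are named.

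STAT letters were present in 6.42% of the sites outside repeats. Their deviations with OSM were 3.41, 10.2 and 9.03% at 24 h and 6.73, 5.65 and 8.25% at 48 h. With EGF they were -3.48, -2.03, -2.97 and -2.65% at 24 h and -5.45, -3.39, -4.60 and -2.125% at 48 h. All 6 OSM libraries lay above all 8 EGF libraries. The mean difference was 10.55 percentage points (exact permutation within time, two-sided p = 0.0008, the smallest the design can give, adjusted p = 0.0024 over 21 motifs), with 10.3 at 24 h and 10.8 at 48 h. Without the 4 libraries that the study left out it was 10.3 (exact permutation adjusted p = 0.042), and leaving out any one library kept it between 9.73 and 11.2. Over all sites, repeats included, the STAT difference was 30.0 percentage points (exact permutation adjusted p = 0.0206), with OSM libraries from -2.48 to 82.4% and EGF libraries from -11.2 to 15.2%. In that form the groups overlapped, and without the 4 libraries it was 11.8 (exact permutation adjusted p = 0.084).

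C/EBP and ATF4 letters followed. C/EBP factors are leucine zipper proteins of acute phase and differentiation genes, and CEBPB and CEBPD are targets of STAT3. Their letters TTGCNNAA, in 14.5% of sites outside repeats, gave deviations of 2.68, 2.41 and 2.78% with OSM and -6.85, -3.21, -6.055 and -3.53% with EGF at 24 h. At 48 h they were 10.8, 3.46 and 8.70% with OSM and -1.64, -0.770, -3.06 and 3.00% with EGF. Only EGF 48 h replicate D reached into the OSM range, and the difference was 7.91 points (exact permutation adjusted p = 0.0024). Over all sites it was 4.58 points and did not pass (exact permutation adjusted p = 0.145), with OSM libraries from -8.96 to 11.5%. ATF4, the stress factor that can pair with C/EBP proteins at the composite letters TGATGNAA, differed by 10.7 points, from 3.47 to 12.96% with OSM and from -5.92 to -0.728% with EGF, without overlap. Over all sites the ATF4 groups overlapped, and the difference of 7.43 points did not pass (exact permutation adjusted p = 0.0514).

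The NF-kB letters GGNNTTTCC, bound by the inflammatory REL family, ran from 0.808 to 9.29% with OSM and from -6.12 to 0.248% with EGF, a difference of 8.30 points without overlap. Over all sites these groups overlapped, and the difference of 5.82 points did not pass (exact permutation adjusted p = 0.0771). Reversed letters were searched as a control and passed for 2 motifs, those of NF-kB at -2.32 points (exact permutation adjusted p = 0.0343) and those of GRHL, an epithelial factor, at 7.13 points (0.0171). The reversed GRHL difference was about as large as those of C/EBP and NF-kB. It was larger in size than those of NFI, SRF, FOX, the p53 family, RUNX and TEAD, given below. The GRHL letters AACNNGTT, when reversed, can match the same bases as the C/EBP letters, and the sites shared by both were not counted. The reversed GRHL value is therefore not a blank control for C/EBP. The KLF/SP letters GGGCGGG read the same when reversed, so their control could not differ from the motif (-2.73 points in both forms). Reversed TEAD letters differed by 1.76 points, against -1.53 for the TEAD letters. The GRHL letters themselves did not pass (1.86 points, exact permutation adjusted p = 0.173). The full SMAD palindrome GTCTAGAC, the target of the TGFB pathway, was rare, at 207 sites, and gave the widest gap, with OSM at 11.3 to 27.1% and EGF at -13.8 to 0.996%. It passed over all sites too, at 22.1 points (exact permutation adjusted p = 0.0086). RUNX (TGTGGT) differed by 2.87 points, the SRF element by 6.44 and the p53 family element, which TP63 also binds in basal epithelium, by 5.21. Over all sites these 3 differed by 0.0068, 3.41 and 1.98 points, and none passed (exact permutation adjusted p = 0.998, 0.145 and 0.589). Outside repeats each of the 8 motifs higher with OSM had an exact permutation adjusted p of 0.0051 or lower, and each also passed without the 4 libraries the study left out, at 0.042. The smallest p those 10 libraries allow is 0.02.

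Letters lower with OSM were those of NFI, FOX and TEAD. NFI factors bind CTTGGCA in many epithelial enhancers. Their deviations with OSM were -3.70, -5.22 and -6.94% at 24 h and -3.47, -4.49 and -3.35% at 48 h. With EGF they were 0.292, 0.0319, -2.44 and -1.31% at 24 h and 5.31, 3.83, 4.09 and 7.01% at 48 h. The groups did not overlap and the difference was -6.63 points (exact permutation adjusted p = 0.0024), or -10.6 over all sites (0.0086). Forkhead letters TGTTTAC differed by -5.89 points and the YAP partner TEAD (CATTCC) by -1.53. Without the 4 libraries the FOX and TEAD differences were -3.22 and -1.03, each with an exact permutation adjusted p of 0.14. AP-1 letters, in 39.1% of sites, did not separate the ligands (0.896 points, exact permutation adjusted p = 0.424), and were lower at 48 h than at 24 h with either ligand, with means of 4.02% and -3.05% with OSM and 4.17% and -4.99% with EGF; this change over time was not tested. Outside repeats no motif difference passed a test of change between the times (lowest exact permutation adjusted p = 0.911).

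**Figure D1:**
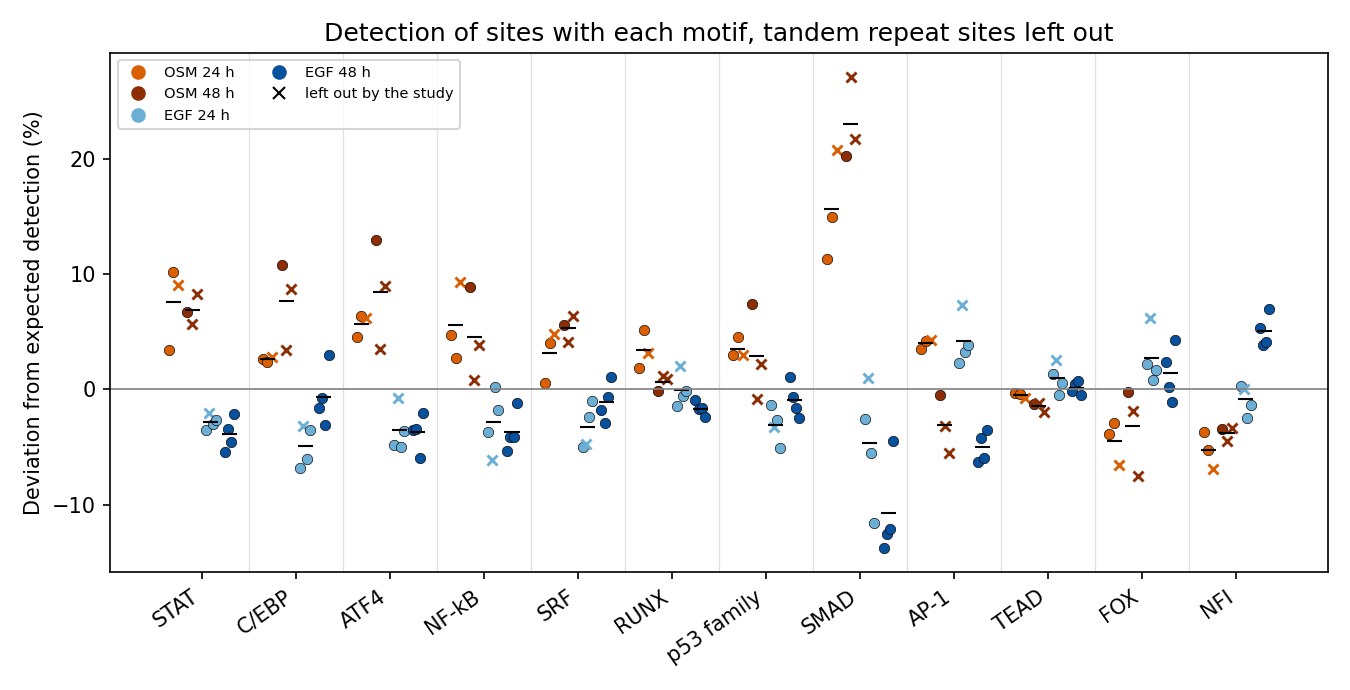
Motif deviation (percent above or below the number of detected motif sites that a library's detection rates predict) for each of the 14 libraries, tandem repeat sites left out. Each symbol is 1 library, coloured by ligand and time, crosses are the libraries the study left out and bars are group means; the OSM symbols lie above the EGF symbols for STAT, ATF4, NF-kB and SMAD and below them for NFI, while AP-1 separates the times rather than the ligands.

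**Figure D2:**
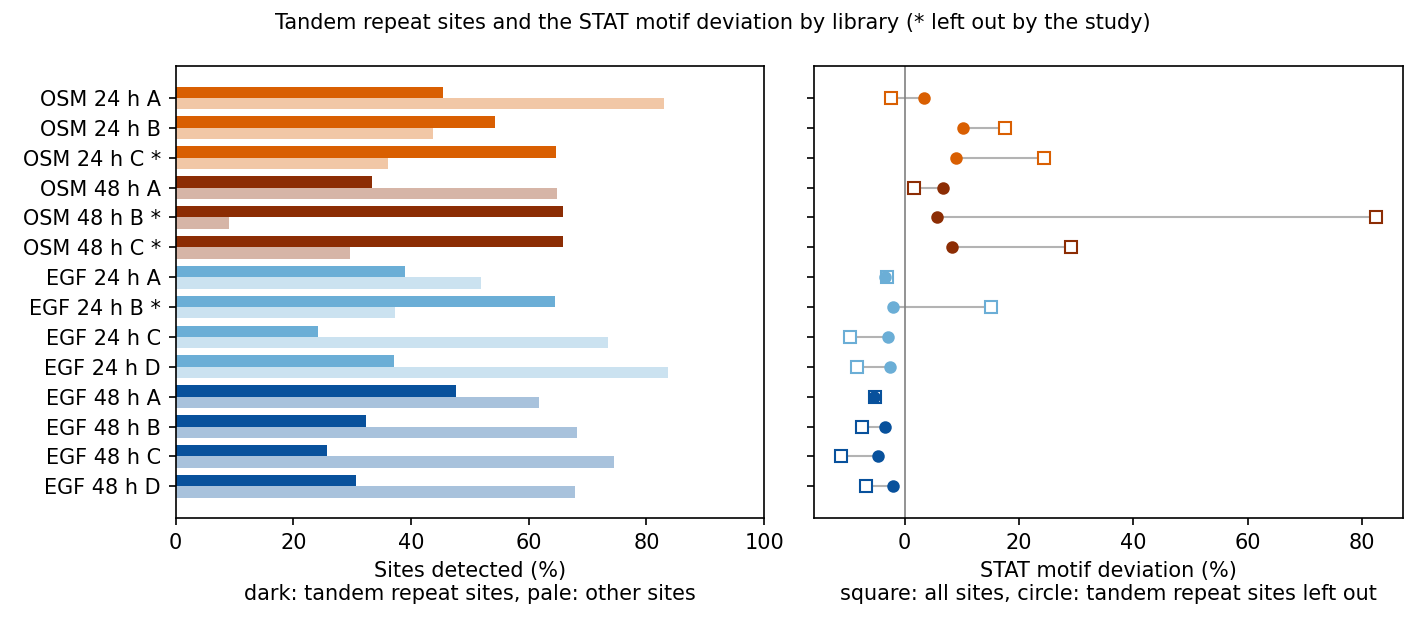
Left, percent of tandem repeat sites (dark bars) and of other sites (pale bars) that each library detects; right, its STAT motif deviation in percent over all sites (squares) and without repeat sites (circles), with asterisks on the 4 libraries the study left out. The highest square, 82.4% in OSM 48 h replicate B, comes back to 5.65%, and all 6 OSM circles lie above all 8 EGF circles.

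Peak height was compared at the 7584 sites that all 14 libraries detected, where detection itself cannot differ. The measure was the deposited fold enrichment over local background, quantile normalized, and tested on the log2 scale with limma. This filter rests mostly on OSM 48 h replicate B, which detected 9789 sites in all, and a site with no peak in any one OSM library could not enter, so the balance of higher and lower sites depends on it. At these sites 187 were higher with OSM (2.47%) and 106 lower (1.4%). At an unadjusted p under 0.05 there were 1624 sites. The sites that were higher were rarely promoters, 6 of 187 against 3087 of 7584 tested (40.7%), while 82 lay in introns and 99 between genes. Of the 106 lower sites, 18 were promoters. The median change was 0.56 on the log2 scale for the higher sites, 0.48 at 24 h and 0.64 at 48 h, and -0.47 for the lower sites. Overlap was counted on log2 fold enrichment centred on each library's median over these sites, without quantile normalization. Groups did not overlap at 58 of the 187 higher sites and at 21 of the 106 lower ones, against 69 and 25 of all 7584. Repeat sites made up 9 of the 187. Without the 4 libraries that the study left out, 87 were higher and 31 lower, 73 and 19 of them called with all 14. With the sequencing lane named in the files as a term, 183 of the 187 and 103 of the 106 stayed called. With the replicate block 144 and 40 did, and 91 and 21 stayed called whichever single library was left out.

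Motifs in these 2 sets of sites are a second description of the same libraries. STAT letters were present in 18.2% of the higher sites, 5.66% of the lower sites and 6.58% of the tested sites. C/EBP letters stood in 24.6%, 8.49% and 12.0%, and NF-kB letters in 12.3%, 5.66% and 4.42%. AP-1 letters were in 36.4%, 49.1% and 30.5%. KLF/SP letters (GGGCGGG), which are common in promoters, were in 0.535%, 9.43% and 22.2%. Nearly all higher sites lay outside promoters. Over the 95236 sites, the share of STAT letters in those outside both promoters and repeats was 6.95%. For C/EBP this share was 16.1%, for NF-kB 4.35% and for KLF/SP 3.87%. For AP-1 it was 44.6%, above the share in the higher sites and below that in the lower sites. This share was not computed for the 7584 tested sites alone, and 9 of the higher sites lay in repeats, so the sets are not alike.

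The 5 sites with the lowest adjusted p among those higher with OSM were all intergenic. The first, 5664 bp from a start of NDRG1 (chr8:133302891-133303757), a gene of stress and differentiation responses, holds STAT letters. Its normalized fold enrichment was 12.8, 14.1 and 14.2 with OSM at 24 h and 13.1, 16.2 and 14.9 at 48 h. With EGF it was 6.57, 5.79, 9.13 and 7.97 at 24 h and 5.57, 5.52, 8.75 and 4.35 at 48 h. No EGF library came near the lowest OSM library, and the fold was 2.18 (log2 difference 1.12 ± 0.14 SE, limma adjusted p = 0.000164). The site nearest to RGMA (chr15:93566658-93567348, 477751 bp from its start), whose STAT letters are printed above, ran from 12.7 to 18.8 with OSM and from 5.49 to 9.23 with EGF, a fold of 2.09. That nearest to IGFBP7, an insulin-like growth factor binding protein, lay 208505 bp from its start and ran from 10.3 to 14.7 against 5.46 to 8.80. At the site nearest to KLF10, a TGFB-inducible zinc finger gene whose start lies 102282 bp away, it was 5.37 to 8.10 against 3.28 to 4.13. Near FSIP2, a sperm sheath gene that lies 400520 bp away, the groups overlapped through EGF 24 h replicate C at 12.7. All 5 kept an adjusted p of 0.0138 or lower without the 4 libraries.

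PBS libraries gave a reference without either ligand, on a scale centred on the median of each library, over those that detect the site. At the NDRG1 site the 4 PBS libraries with a peak lay between -1.26 and -0.29, the OSM libraries between 0.36 and 0.93 and the EGF libraries between -1.31 and -0.11 (log2). Over the 187 higher sites the median difference from PBS was 0.61 for OSM and -0.01 for EGF. For the 106 lower sites it was -0.20 for OSM and 0.25 for EGF. The sites were chosen by the OSM and EGF difference, which partly fixes these medians, and PBS libraries without a peak are not in them, so they do not separate an effect of OSM from the absence of EGF.

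Of the 106 lower sites 35 lay in introns and 51 between genes, and the 5 with the lowest adjusted p were all intronic. In P3H2, a prolyl 3-hydroxylase of collagen, the site (chr3:190064117-190064663) holds AP-1 letters at 2 places, printed above. Its normalized fold enrichment was 12.3, 11.2 and 9.49 with OSM at 24 h and 8.10, 7.34 and 7.00 at 48 h, against 14.4, 12.96, 15.9 and 14.8 with EGF at 24 h and 13.7, 14.6, 12.99 and 12.0 at 48 h. The log2 difference was -0.62 ± 0.10 SE (limma adjusted p = 0.00135), and 1 OSM library, 24 h replicate A, reached the EGF range. The site in LGR6, nearest to the start of UBE2T (chr1:202283093-202284501), ran from 3.45 to 7.20 with OSM and from 9.498 to 11.2 with EGF without overlap. LGR6 is a receptor for R-spondins that potentiates WNT signaling. In GNG12, a G protein subunit gene, at a site nearest to the start of GADD45A, the values were 5.73 to 10.3 against 8.93 to 12.3. ASB4 (-0.61) and the gene ENSG00000285471 (-0.50) completed the 5, and without the 4 libraries the limma adjusted p of these was 0.101 and 0.0598.

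**Figure D3:**
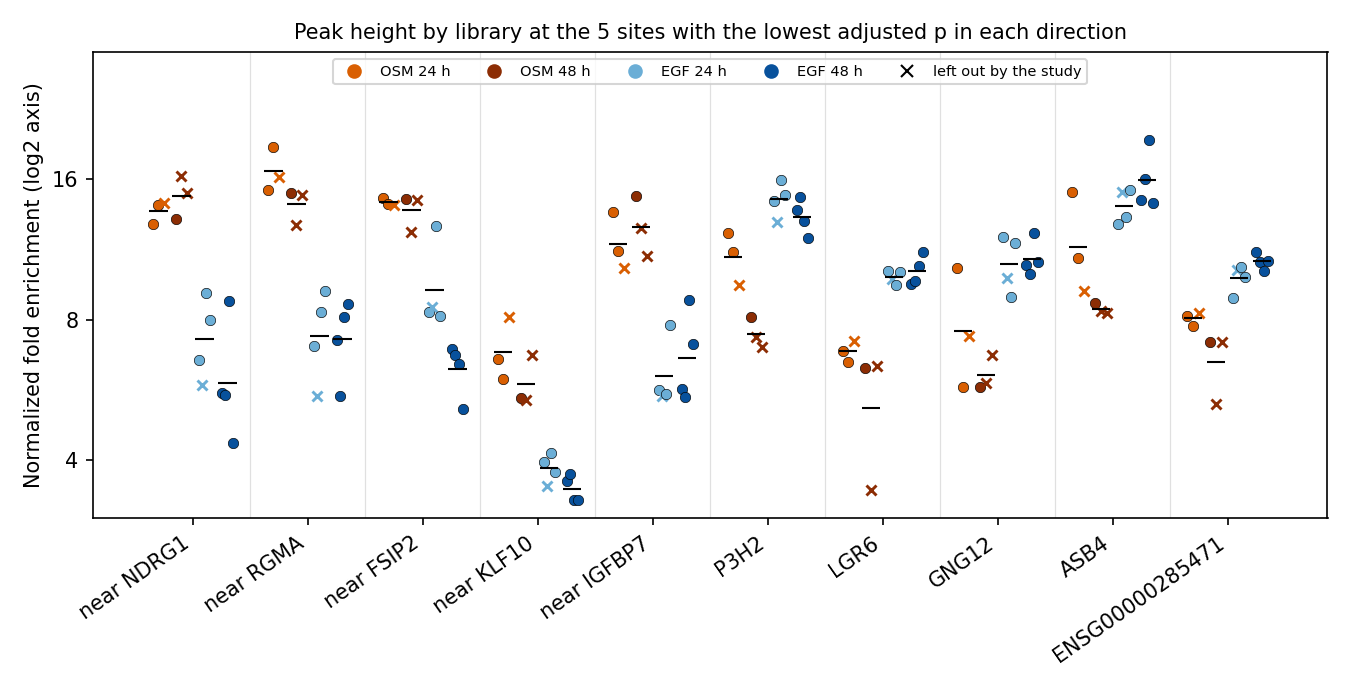
Normalized fold enrichment (log2 axis) at the 5 sites with the lowest adjusted p in each direction. Each symbol is 1 library, crosses are the libraries the study left out and bars are group means; the OSM symbols lie above the EGF symbols without overlap at the NDRG1, RGMA, KLF10 and IGFBP7 sites, and below them without overlap at the LGR6 site and the ENSG00000285471 site.

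By time, 12 sites were higher (0.158%) and 0 lower (0.0%) at 24 h, and 136 higher (1.79%) and 73 lower (0.963%) at 48 h. The difference between times passed at 0 sites with limma (0.0%), with 436 at an unadjusted p under 0.05, so the larger counts at 48 h are not shown to differ from those at 24 h. Over all 7584 sites 65.4% had the same sign at both times. Of the sites called on the mean of the times, for which that choice largely fixes it, 186 of 187 higher and 106 of 106 lower sites did.

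**Figure D4:**
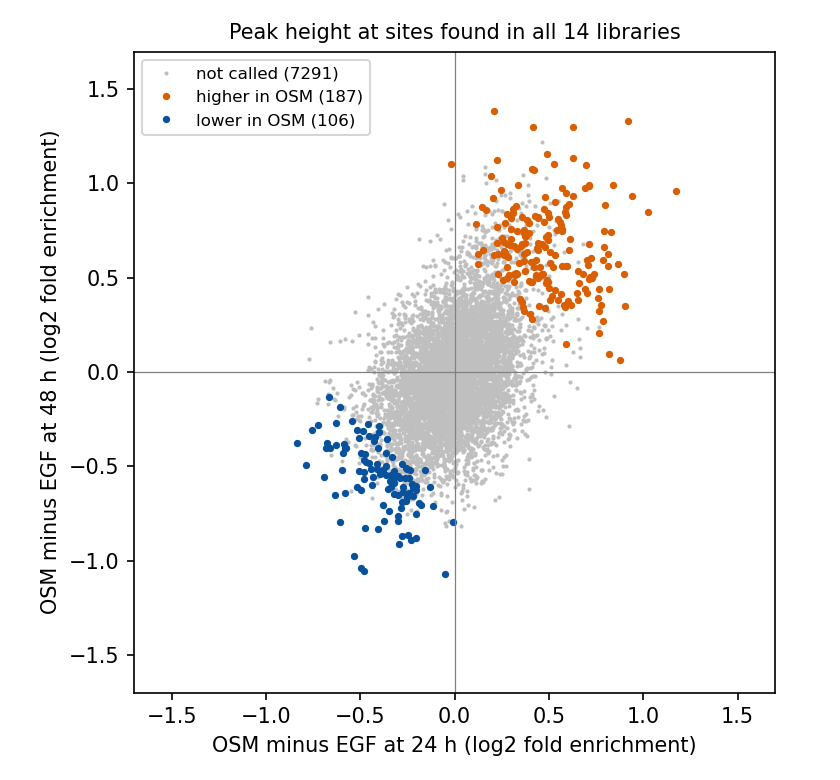
OSM minus EGF log2 difference in normalized fold enrichment at 24 h (horizontal axis) and 48 h (vertical axis) for the 7584 sites detected in all 14 libraries. Sites called on the mean of both times are marked by direction, which largely fixes their place in the plot; 65.4% of all sites have the same sign at both times, and the medians of the higher sites are 0.48 and 0.64.

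Presence of a peak was then tested at the 87652 sites that some but not all of the 14 libraries detected, as 1 or 0 minus the share of equally common sites that the library detects, so that a library with few peaks is not read as closed chromatin. With limma on the 14 libraries, 0 sites passed in either direction at both times together, at 24 h, at 48 h or for the difference between times (0.0% each). At an unadjusted p under 0.05 there were 5479 higher (6.25%) and 4712 lower (5.38%) sites. The 45 sites found in all 8 EGF and in no OSM library had an adjusted difference of -0.64 and an adjusted p of 0.276, so even the most one-sided pattern on the EGF side did not pass. Nor did that on the OSM side, described next, so a count of 0 says little in this form of the test. With the strongest peaks only, the same libraries gave 487 higher and 353 lower sites. Without OSM 48 h replicate B, 560 were higher and 0 lower.

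Only 4 sites were found in all 6 OSM and in no EGF library, at an adjusted difference of 1.26 ± 0.15 SE and a limma adjusted p of 0.112. One lay 28425 bp from FCAMR, an Fc receptor of IgA and IgM (chr1:206998884-206999189), with the STAT letters printed above, and its fold enrichment was 14.2, 7.33 and 5.21 at 24 h and 15.7, 6.88 and 9.24 at 48 h. Peaks there were also present in 3 of 4 time 0 libraries, 5 of 6 PBS and 5 of 6 HGF libraries, while none of the 8 EGF libraries had one. Another was the promoter of KRT6C (chr12:52473815-52474103), a keratin of stratified epithelium, at 11.3, 3.85 and 3.94 and then 9.54, 7.20 and 5.93. KRT6A, KRT6B and KRT6C are near-identical copies, so reads at this site can be shared among them. It was found in all 4 time 0 libraries, 2 PBS and 4 HGF libraries. The third, in an intron of N4BP1 (chr16:48611605-48612174), a ribonuclease-like protein of NF-kB signaling, with C/EBP and NF-kB letters, ran from 4.65 to 8.48. It was found in no time 0, PBS or HGF library, in 1 IFNG and in 1 TGFB library. The fourth, on chr18:40167788-40168344, was far from any gene and found in none of the 28 other libraries.

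Near IL17B, an interleukin-17 family cytokine, the site with the STAT letters above (chr5:149438736-149439152) was found in 6 of 6 OSM and 1 of 8 EGF libraries. The others found in 6 OSM and 1 EGF library that the rule named lay near SCYGR1, in the intron of SLC27A6, a fatty acid transporter, and in a tandem repeat far from CWH43. On the EGF side, the sites in the introns of ZBTB40, a zinc finger protein, VAV3, AAK1, a kinase of clathrin adaptors, CLASP1, a microtubule protein, and PLA2R1, a phospholipase receptor, were found in 8 of 8 EGF and 0 of 6 OSM libraries, as were sites nearest to AHCYL1, CD34 and PLD5. These 8 are the first by position of 45 equal sites. At the ZBTB40 site (chr1:22500304-22500824) the fold enrichment was 4.50, 3.74, 4.95 and 12.6 at 24 h and 5.93, 8.15, 11.1 and 9.29 at 48 h with EGF, and the site was found in 4 of 4 time 0 libraries, 1 PBS and 4 HGF libraries. At the VAV3 site (chr1:107670046-107670645) it was 7.50, 4.68, 6.66 and 10.0 and then 8.46, 10.7, 12.6 and 8.68. The 3 sites with the lowest p for a difference between times lay in repeats near SRGAP2C and ZNF254 and in the intron of SH3RF2 (each with a limma adjusted p of 0.80).

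When the same test was run with all 42 libraries in the fit, which shares 1 estimate of the spread over 13 groups and was among the alternatives, 962 of 94681 sites were higher (1.02%) and 319 lower (0.337%). At 24 h alone it called 174 higher (0.184%) and 23 lower (0.0243%), together 0.208%, and at 48 h 276 (0.292%) and 66 (0.0697%), together 0.361%, with 0 higher and 3 lower (0.00317%) for the difference between times. The cut of 0.5 on the adjusted difference is uneven by side. With only the OSM and EGF libraries in the fit, sites in 3 OSM and 0 EGF libraries had a median difference of 0.58. Sites in 0 OSM and 6 EGF libraries had -0.49, short of the cut, and those in 0 and 7 had -0.55. The cut passes sites on the OSM side more readily, and the balance of higher and lower calls was not tested apart from it. On drawn data the fit to 42 libraries called more unchanged sites than its nominal rate, so its calls are given as a description. Its lowest adjusted p among sites with no peak outside OSM belonged to the chr18 site (1.63e-09), to the KYNU site and to an OXR1 intron site (1.02e-05 each). KYNU, whose product is a kynureninase, lay 234816 bp from a site found in 5 of 6 OSM libraries and in none of the other 36 libraries, with the STAT letters printed above. The OXR1 site (chr8:106285704-106286191) held STAT letters too. Its lower calls were led by a site nearest to TPT1 and by the ZBTB40 intron (limma adjusted p = 0.00235 and 0.00259). Outside repeats, 946 of the higher calls held STAT letters in 17.2%, C/EBP letters in 26.2% and NF-kB letters in 7.72%, against 6.48%, 14.7% and 4.34% of tested sites. Of 319 lower calls, 9.09% held NFI letters, against 5.57%. At the higher sites a time 0 library detected 66.6% and a 24 h PBS library 25.4% on average, and at the lower sites 91.0% and 25.7%, against 82.6% and 44.7% of all tested sites.

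Genes of the pathways were looked up within 50 kb of their starts, 116 genes in 8 lists with 925 sites. On the 14 libraries 0 of 828 tested sites passed with limma (0.0% of all sites), and 64 higher and 37 lower were at an unadjusted p under 0.05, 12.2% of the tested list sites against 11.63% of all tested sites, which is close to the background. With 42 libraries in the fit 20 sites were higher and 1 lower, 2.27% against 1.35% of all. The cut on the adjusted difference favours higher calls here too. Of the 97 list sites with peaks in all 14 libraries, 1 was higher, near DSG3, a desmosomal cadherin of basal keratinocytes, by 0.54 ± 0.12 SE (limma adjusted p = 0.0111). This is a smaller share than the 2.47% of all 7584 sites.

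Receptor and JAK-STAT genes showed no site past the test in either fit. Of 90 tested sites of this list, 4 were higher and 2 lower at an unadjusted p under 0.05 (6.67%, against 11.63% of all tested sites). Promoters of IL6ST, OSMR, STAT3 and JAK2 were detected in all 14 libraries. At the OSMR promoter the median fold enrichment was 9.26 with OSM and 10.8 with EGF, and at the STAT3 promoter 9.58 and 12.3. That of EGFR was detected in 4 of 6 OSM and 7 of 8 EGF libraries.

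STAT3 targets held 5 higher sites in the 42-library fit, among 143 (3.497%, against 1.35% of all sites in either direction). SOCS3, the feedback inhibitor of JAK kinases, had a site in the intron of PGS1, 39766 bp away, in 5 of 6 OSM and 4 of 8 EGF libraries. BCL6, a transcriptional repressor, had an intron site with STAT letters, printed above, in 3 of 6 OSM libraries and in no other library of the 42, at a fold enrichment of 3.95, 3.23 and 4.27. The limma adjusted p of this BCL6 site was 0.296 with 14 libraries and 0.0097 with 42. In the latter fit the other groups, which lack this peak, enter the estimate of spread. IRF1, an interferon-response factor, had an intron site in 6 of 6 OSM and 4 of 8 EGF libraries, at 6.72, 4.28, 4.43, 6.41, 3.90 and 3.76 with OSM. In EGF libraries it was 3.54, 4.03, 4.09 and 3.72 where present. JUNB and CEBPB each had a distal site, in 4 of 6 against 2 of 8 and in 3 of 6 against 0 of 8. The IRF1, SOCS3 and JUNB sites were also present in all 4 time 0 libraries and in 2 HGF libraries at each time. Of the 6 PBS libraries, 6, 1 and 3 had them. The CEBPB site was present in 2 time 0 libraries and 0 PBS libraries.

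Among 122 sites of the EGF receptor family and its ligands, 4 passed in the 42-library fit (3.28%, against 1.35% of all sites). All 4 were higher with OSM, as were 962 of the 1281 calls over all sites, and the cut on the adjusted difference favours that side. HBEGF, which releases an EGF receptor ligand, had a site 1800 bp from its start in 5 of 6 OSM libraries, with fold enrichments of 5.29, 4.77 and 3.35 at 24 h and 3.52 and 3.14 at 48 h, and in no EGF library (42-library limma adjusted p = 0.00334). AREG, the amphiregulin gene, had an exon site in 3 of 6 and 0 of 8. NRG1, a ligand of ERBB3, had an intron site in 4 of 6 and 1 of 8, and ERBB2 an intron site in 3 of 6 and 1 of 8. The ERBB2 site was also present in all 4 time 0 libraries, in 2 PBS libraries and in 2 HGF libraries at each time. The HBEGF, NRG1 and AREG sites were present in 2, 1 and 0 time 0 libraries. Of the ERK targets and feedback genes, 1 site of 122 passed (0.82%, below the 1.35% of all sites). It lay 4661 bp from EGR1, in 5 of 6 OSM and 2 of 8 EGF libraries. The EGR1 site was present in all 4 time 0, all 6 PBS and all 6 HGF libraries, while 6 of the 8 EGF libraries lacked it.

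Acute phase and complement genes, of which the liver is the main source, held 2 higher sites among 90 (2.22%, against 1.35% of all sites), both within 50 kb of SERPINA1, and the called promoter site (chr14:94390577-94391098) was present in 4 of 6 OSM and 0 of 8 EGF libraries, at fold enrichments of 5.47, 3.57, 4.42 and 4.67. Proteases and their inhibitors held 3 among 118 (2.54%). MMP10 and MMP1, 2 matrix metalloproteinases, shared a site with C/EBP letters (chr11:102758258-102758474) in 5 of 6 OSM libraries, at 6.91, 6.94 and 3.92 at 24 h and 7.75 and 3.94 at 48 h, and in no EGF library. SERPINB4 and SERPINB3, squamous serpins, shared a site with STAT letters, printed above, in 3 of 6 OSM libraries and in no other library. PLAU, the urokinase gene, had a site in 5 of 6 and 3 of 8, also present in all 4 time 0 libraries and 1 PBS library. Inflammatory cytokines held 2 among 86 (2.33%). IL1A and CXCL3 each had a site, in 3 of 6 against 0 of 8 and in 5 of 6 against 3 of 8. These were present in 0 and 3 of the 4 time 0 libraries.

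Basal keratin and adhesion genes held 3 higher sites and 1 lower among 139 (2.88%, against 1.35% of all sites). One is the KRT6C promoter, within 50 kb of KRT6A, KRT6B and KRT5. KRT17, KRT16 and KRT14 shared an intergenic site in 3 of 6 and 0 of 8, and COL17A1, a hemidesmosome collagen, had one in 3 of 6 and 0 of 8. The site shared by the 3 keratin genes was also present in 3 of 4 time 0 libraries, and that of COL17A1 in 0. ITGA6, the alpha subunit of the laminin-binding integrin of basal cells, had the lower site, in its intron (chr2:172438993-172439514), present in 8 of 8 EGF libraries at 3.23 to 5.21 and in 1 of 6 OSM libraries at 2.86. OSM 24 h replicate A and 48 h replicate A detected every higher site named for a listed gene, whereas 48 h replicate B, with 11188 peaks, detected those of IRF1, JUNB and KRT6C.

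**Figure D5:**
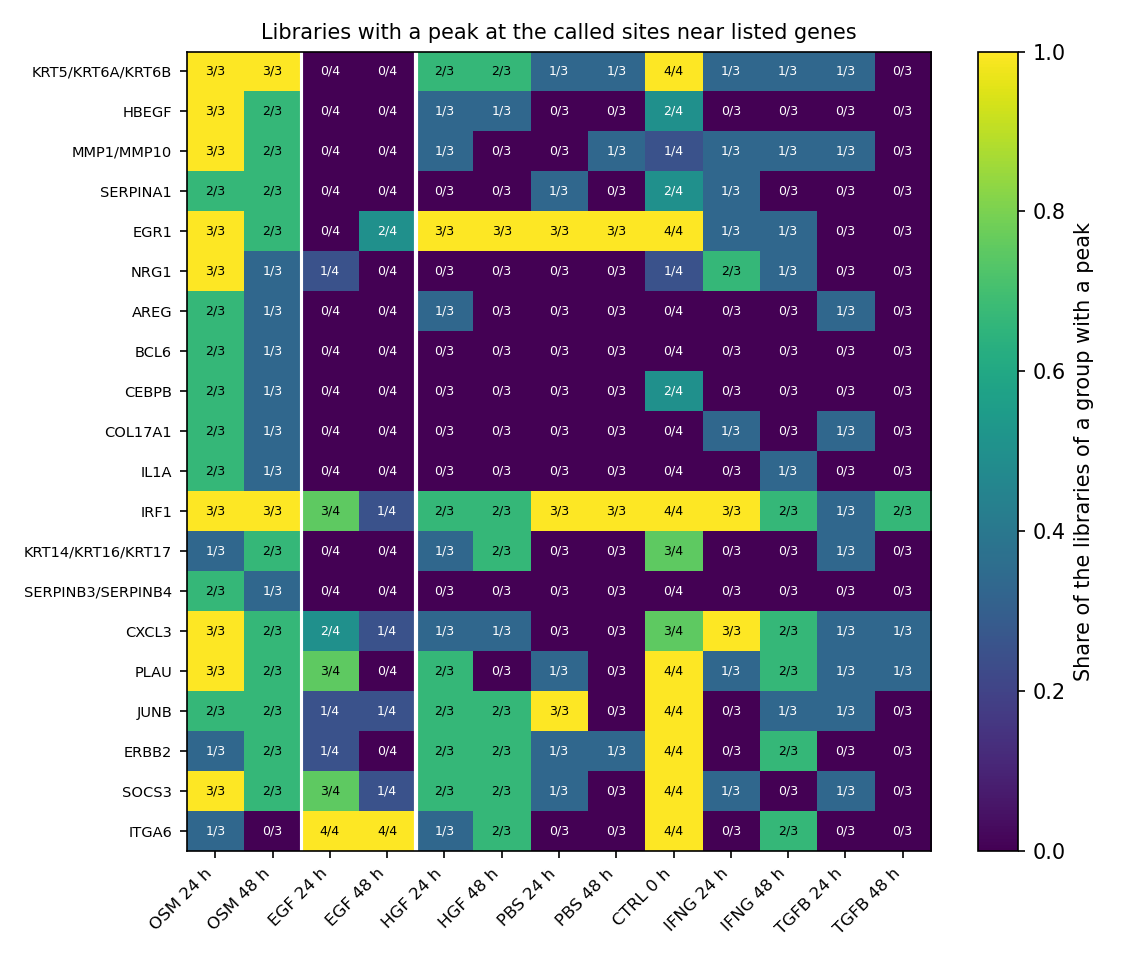
Share of libraries with a peak at the list-gene sites called with 42 libraries in the fit, 1 row per site and 1 column per group (colour from 0 to 1, with the libraries counted in each cell). No EGF library has a peak at the KRT5/KRT6A/KRT6B, HBEGF, MMP1/MMP10 and SERPINA1 sites, BCL6 and SERPINB3/SERPINB4 are filled only with OSM, and ITGA6 is filled in 8 of 8 EGF libraries and 1 of 6 OSM libraries.

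Other ligand groups of the series, with the deviation computed over all 42 libraries outside repeats, are given beside OSM. STAT deviations were 3.78 to 12.3% at 24 h and 7.43 to 18.6% at 48 h with OSM, and -2.27 to 0.638% and -4.47 to -1.39% with EGF. With IFNG, which was given together with EGF, they were 5.83 to 13.8% at 24 h and -24.2 to 3.70% at 48 h, so only the 24 h values overlapped those of OSM. The IFNG median at 48 h was 3.48%, and replicate C of that group had only 6156 peaks. With TGFB they were -0.140 to 15.04% and 2.07 to 22.4%, and with PBS -6.86 to -2.61% and -6.75 to -5.81%. HGF, a growth factor that acts through the receptor MET, gave -7.15 to -2.61% at 24 h, overlapping PBS and not EGF, and -4.08 to -2.12% at 48 h, within the EGF range. C/EBP deviations were 2.91 to 4.08% at 24 h and 11.03 to 20.6% at 48 h with OSM, 2.40 to 9.58% and 3.18 to 8.43% with PBS, and -6.39 to -2.01% and -2.64 to 3.38% with EGF, so PBS lay above EGF at 24 h as OSM did. ATF4 deviations were 4.28 to 6.71% and 10.7 to 15.3% with OSM, and 0.184 to 9.74% and 4.14 to 7.39% with PBS. With EGF they were -5.55 to -0.455% and -6.38 to -2.56%, below PBS at both times. For the p53 family at 24 h, PBS gave 2.23 to 11.6%, HGF 2.49 to 3.86% and EGF -5.09 to -0.320%. RUNX went the other way at 24 h, at -8.35 to -4.32% with PBS and 0.538 to 6.29% with EGF. For NF-kB and SRF, PBS and EGF overlapped at 24 h. NFI deviations were -10.2 to -4.39% and -7.31 to -4.99% with OSM and 2.54 to 8.24% and 5.11 to 8.67% with PBS. SMAD letters reached 10.8 to 144.1% at 24 h with TGFB (also with EGF), beside 8.99 to 19.1% with OSM and -13.8 to -1.48% with EGF. The motif is rare, and TGFB 24 h replicates B and C had only 7014 and 5306 peaks and detected 6.43% and 4.74% of the sites. At 48 h SMAD deviations were -3.56 to 7.19% with HGF and -16.65 to -7.44% with EGF. These ranges were not tested.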

How the data were processed

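ATAC-seq libraries of MCF10A cells were prepared by the Omni-ATAC protocol. Per the labels and methods, the authors trimmed reads with Trimmomatic 0.36.5, aligned them to hg38 with Bowtie2 2.3.4.1, removed mitochondrial alignments and, with Picard, duplicates, and called peaks in each library with MACS2 2.1.1.20160309.5 at a q-value of 0.01. The deposited peak files give for each summit a score (10 times the −log10 q-value), a fold enrichment ratio over local background and the −log10 p and q, all computed by the authors with MACS2 and not otherwise normalized. No read counts were used, so depth is unknown.

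Peaks of the 14 libraries were merged (22534 of 947625 summits lay off the primary chromosomes and were left out) and kept where at least 2 libraries had one. Detection (1 or 0) was adjusted by subtracting the library's mean over sites found in the same total number of libraries, and tested with limma 3.58.1 (R 4.3.3, Benjamini-Hochberg), a site being called at an adjusted p under 0.05 and a difference of at least 0.5. The contrast was the mean of the 24 h and 48 h OSM minus EGF differences. Motif deviations were tested by exact permutation of the ligand labels within time. The log2 fold enrichment of the highest summit was quantile normalized. Python 3.11.15, numpy 2.4.6, pandas 2.3.3, pysam 0.24.0 and matplotlib 3.10.9 were used. The fits were tested on simulated data. In the simulated data the 14-library fit recovered only sites higher with OSM, so its counts of 0 lower sites say little.

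Sites were named as the 8 with the lowest adjusted p in each direction with the same sign at both times (ties by position), the 3 for the time difference, the 5 in each direction for enrichment, and the best called site within 50 kb of each listed gene. The comparison, gene lists and motifs were chosen with earlier results of these data known. Tandem repeat sites were those whose 1000 bp around the summit matched themselves at 0.4 or more of positions when shifted by the alpha satellite period, within 2 bp, or by 5, 10, 15 or 20 bp.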

Additional observations from a re-analysis of the deposited data

Results flagged for a closer look

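In groups of 4 libraries, 92 sets of values were tested for a library far from the rest, and 3 stood out, all with EGF at 24 h. Chance marks about 1 in 20 groups. The AP-1 deviation over all sites was 2.149% in replicate A and 4.501 to 4.913% in the other three. The ETS deviation over all sites was -4.758% in replicate B and 0.304 to 0.688% in the others. Without repeat sites it was -4.055% in replicate B and -0.0656 to 0.317% in the others. Replicate B is the EGF library that the study left out.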

How the results depend on the processing

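Detection calls depended on the fit. With limma on 14 libraries, 0 sites passed in any contrast, as with a stricter q, a summit cut, at least 3 libraries, the lane, the replicate block and without the 4 libraries. In the planned form with 14 libraries not even 6 of 6 against 0 of 8 passed, so these zeros do not show stability. Higher and lower sites over both times numbered 150 and 1483 with unadjusted detection, 487 and 353 with the strongest peaks only, 962 and 319 with 42 libraries, and 4659 and 2640 with array weights, whose fit did not converge fully. At 24 h these alternatives gave 78, 324 and 197 calls, at 48 h 1570, 579, 342 and 24626 (weights), and for the time difference 1, 3 (42 libraries) and 3054 (weights). The array weight of OSM 48 h replicate A was 54.7, against 0.103 and 0.214 for replicates B and C. The OSM side of the weighted 48 h calls therefore rests mostly on replicate A. Leaving out 1 library gave 0 to 560 higher (208 without OSM 24 h replicate A, 560 without OSM 48 h replicate B) and 0 lower sites, 0 to 233 at 24 h, 0 to 353 at 48 h and 0 for the time difference.

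The following 42-library alternatives, like those without repeat sites and, for enrichment, with the lane, were chosen after seeing the data. An adjusted p of 0.01 left 306 and 32 sites (31 at 24 h, 40 at 48 h), and leaving out the 4 libraries gave 3037 and 1765 (579, 2827, and 133 for time). Without 1 library the counts were 315 to 1344 higher (315 without OSM 48 h replicate A, 484 without OSM 24 h replicate B), 16 to 652 lower, 63 to 935 at 24 h, 12 to 658 at 48 h and 3 to 52 for time. List genes with a called site numbered 26 with 42 libraries and 0 to 15 when 1 of the 14 was left out (7 without OSM 24 h replicate A, 15 without OSM 48 h replicate B).

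Enrichment calls were 67 and 12 at an adjusted p of 0.01, 87 and 31 without the 4 libraries, 336 and 218 with the lane, and 112 to 442 higher and 42 to 330 lower without 1 library. The extremes were without OSM 24 h replicate B (112 and 42) and without OSM 48 h replicate A (442 and 330). Motifs past the threshold numbered 11 without repeats, 10 with a 50 bp window, 0 with reversed letters, 0 without the 4 libraries, where 50 arrangements remain, and 4 to 14 without 1 library. Without repeats they were 2 with reversed letters and 11 to 16 without 1 library. The peak number difference ran from -0.3264 to -0.1192 without 1 library (exact permutation p = 0.0229 to 0.204). That of the promoter share ran from 2.393 to 4.535 points and reversed to -2.044 among the strongest peaks only; the cause was not tested.

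Deviations of same-letter libraries correlated at -0.223 to 0.447 in enrichment, and those of different letters at -0.383 to 0.355. Between OSM and EGF, replicates A, B and C gave -0.132, 0.127 and -0.219 at 24 h and -0.223, -0.0113 and -0.0943 at 48 h. These values show no clear pairing of OSM with EGF by letter. Between the 2 times they were 0.447, 0.0867 and 0.118 with OSM and 0.179, -0.0639, 0.221 and 0.0804 with EGF, so a pairing across times is not excluded. With the replicate block, 0 detection sites (lowest limma adjusted p = 0.281), 150 higher and 44 lower enrichment sites and 4 motifs passed, the peak number differed by -0.202 (exact permutation p = 0.15) and the promoter share by 2.31 points (0.28). Of 667 alternatives over 42 named results, 589 kept direction and side of the threshold, 18 fell below it, 60 passed it and 0 reversed. Depth is unknown, so an undetected peak is not shown to be closed chromatin.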
